A study of Mus musculus with 26 samples.

Results

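The urokinase receptor, its ligand and inhibitor, and 6 proteases or protease inhibitors of the senescence-associated secretory phenotype (SASP, the factors that senescent cells release) were followed in mouse bone marrow leukocytes. The genes were Plaur, Plau, Serpinb2, Timp1, Timp2, Mmp14, Ctsb, Ctsd and Adam17, taken as every probe whose gene symbol in the raw array matrix equals one of these names. They had 10 probes of 25697 on the array, with 2 for Timp1 and 1 for each other gene, and made up 9 of the 10792 genes tested. All 10 probes passed the filter on dim probes, which kept a probe detected above background (detection p under 0.05) on at least 3 arrays.

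All mice were male SCID animals of strain CB17/Icr-Prkdcscid, 6 to 8 weeks old, which lack mature T and B cells. All of them, controls included, carried a prior graft of human acute lymphoblastic leukemia, and the leukemia cells were gated out when femoral marrow was flow sorted. The 3 conditions were home cage control, restraint stress, and restraint stress plus propranolol, a blocker of beta-adrenergic receptors. No group received propranolol without restraint, so comparisons with propranolol describe restrained mice only. Each condition was run in 2 experiments with 5 arrays for control, 5 for restraint and 3 for restraint plus propranolol in each, 26 arrays in all. Whether arrays came from separate mice is not given in the labels, so p-values measure the spread between arrays, which may be technical.

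Per array, 39.5% to 51.2% of probes were detected, and precision is limited by how many arrays each group has. Among marker genes for the labelled leukocytes, all 8 tested genes of mature neutrophils, all 9 of granule precursors and all 9 of monocytes were detected on every array. Erythroid and B cell markers moved with condition. With restraint against control, 10 of 10 erythroid genes were lower (median -2.10), and limma called 6 of them at adjusted p under 0.05. All 7 B cell genes were lower (median -0.67), and 2 of them, Rag1 and Vpreb3, were called. In that comparison 2.06% of all probes were called. The mean log2 intensity of 10 erythroid genes was 7.88 on control arrays (range 5.21 to 9.34), 5.74 on restraint arrays (4.69 to 7.19) and 5.83 on restraint plus propranolol arrays (4.57 to 8.56). That of 7 B cell genes was 6.31 (5.33 to 7.26), 5.39 (5.01 to 5.63) and 5.35 (5.17 to 5.87) in the same order. No gene in either list was at 0, since array values have no true zero, and 0 of 10 erythroid and 1 of 7 B cell genes were detected on every array. The part of these cells in the values given here was not tested. In such bulk samples, fewer cells of a type and less RNA per cell cannot be told apart.

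Urokinase, encoded by Plau, is a serine protease that turns plasminogen into plasmin at the cell surface, where the receptor uPAR, encoded by Plaur, holds it through a lipid anchor. Plasmin breaks down fibrin and matrix and activates matrix metalloproteinases, and PAI-2, encoded by Serpinb2, inhibits urokinase. Mmp14 is a membrane-bound metalloproteinase that activates pro-MMP2 together with TIMP-2, while Timp1 and Timp2 encode inhibitors of this enzyme family. Cathepsins B and D are lysosomal proteases of cysteine and aspartic type, and Adam17 sheds surface proteins such as tumor necrosis factor. Myeloid cells of the marrow use uPAR and these proteases for adhesion, migration and turnover of ingested proteins.

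The promoters of Plaur and Ctsd are shown here because Plaur was the member that passed the test over both experiments and Ctsd had the smallest adjusted p among the others. The sequences are the 250 bases before the start site in RefSeq's promoter table (mouse build GRCm38.p6), in which 7 of the 9 genes were found; Plau and Ctsb were not among them. Capitals mark TGANTCA, the binding motif of AP-1, in Plaur, and CACGTG, the E-box at the core of the CLEAR element of lysosomal genes, in Ctsd. The Plaur window lies at chr7:24462233-24462482 on the plus strand, within the annotated span of the gene, and the Ctsd window at chr7:142387828-142388077 on the minus strand.
Plaur: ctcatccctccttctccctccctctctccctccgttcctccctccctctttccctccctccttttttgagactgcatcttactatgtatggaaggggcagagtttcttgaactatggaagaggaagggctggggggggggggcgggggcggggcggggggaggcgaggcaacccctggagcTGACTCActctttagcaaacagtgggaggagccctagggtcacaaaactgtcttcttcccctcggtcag
Ctsd: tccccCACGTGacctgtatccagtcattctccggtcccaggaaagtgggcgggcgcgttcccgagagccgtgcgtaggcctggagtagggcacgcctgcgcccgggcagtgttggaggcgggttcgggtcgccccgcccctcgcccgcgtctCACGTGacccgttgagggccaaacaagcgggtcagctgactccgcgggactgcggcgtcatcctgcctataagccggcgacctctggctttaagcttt
The Plaur window held 1 AP-1 match, at -69 from the start site, and the Ctsd window held 2 E-boxes, at -245 and -98. Over 32851 promoters of the same length, searched on both strands, 7.81% held TGANTCA and 7.15% held CACGTG. Of the other 5 genes in the table, Serpinb2 held a TGANTCA match, at -94 or -181 from its 2 listed start sites, and a TATAAA box, a sequence held by 13.6% of promoters. No window of the 7 genes held the cAMP response element TGACGTCA (1.79% of promoters) or the NF-kappaB motif (1.63%). These matches describe letters and show no binding, and the motifs do not overlap one another.

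The receptor gene Plaur (probe ILMN_2590884, gene at chr7:24460937-24475970 on GRCm38.p6) was the only member called in a comparison over both experiments. Its normalized log2 intensity was 9.63 ± 0.39 on control arrays (SD, n = 10), 9.97 ± 0.20 on restraint arrays (n = 10) and 10.18 ± 0.13 on restraint plus propranolol arrays (n = 6). Plaur rose with restraint plus propranolol against control by 0.55 on the log2 scale (SE 0.133), a 1.46-fold difference with adjusted p = 0.0196 in limma, and 6 of 6 arrays lay above the control mean of their experiment. In that comparison 3.49% of the 15061 probes were called, at adjusted p under 0.05 over all probes. Restraint alone was 0.34 above control (SE 0.115, 95% interval 0.10 to 0.58), with adjusted p = 0.137 and 7 of 10 arrays above the control mean. Restraint plus propranolol was 0.21 above restraint (SE 0.133, interval -0.07 to 0.48), with an unadjusted p of 0.132, and did not pass the adjusted test. The order was thus control, restraint, restraint plus propranolol, and neither pair of neighbours differed past the test.

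The Plaur values differed between the experiments mainly on the control arrays. In experiment 1, the 5 control arrays read 9.63, 9.18, 9.37, 9.36 and 9.07, the 5 restraint arrays 9.94, 10.05, 9.90, 10.02 and 9.76, and the 3 restraint plus propranolol arrays 10.04, 10.12 and 10.20. The control group overlapped neither of the other groups there. How many of all probes had such gaps between groups was not counted, so the gap does not set Plaur apart. In experiment 2, the control arrays read 10.14, 10.23, 9.88, 9.85 and 9.58, the restraint arrays 9.73, 10.35, 9.87, 10.24 and 9.84, and the restraint plus propranolol arrays 10.07, 10.41 and 10.22. These 3 groups overlapped, and 2 of 5 restraint arrays lay above the control mean.

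Tested within experiment 1, Plaur was 0.61 higher with restraint than in control (SE 0.148), a 1.53-fold difference with adjusted p = 0.0804, where 0.286% of probes were called. Restraint plus propranolol against control in experiment 1 gave 0.80 (SE 0.170, 1.74-fold) with adjusted p = 0.0263, where 0.538% of probes were called. That call was made in 9 of 13 alternatives, not with slide as a fixed term (adjusted p = 0.495), and in 20 of 26 fits without 1 array. In experiment 2 the same differences were 0.07 (adjusted p = 0.938, 0.0133% of probes called) and 0.30 (adjusted p = 0.392, 0.85% called). The difference between experiments itself was -0.54 for restraint against control (unadjusted p = 0.0167) and -0.50 for restraint plus propranolol against control (unadjusted p = 0.0494). Neither passed the limma test after adjustment (adjusted p = 0.9998 and 0.888), in which 0% of probes were called for any of the 3 differences between experiments.

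The arrays sat on 4 slides, and the restraint plus propranolol arrays of experiment 1 shared no slide with their controls. On the slide with 3 restraint and 5 control arrays of experiment 1, restraint was 0.64 above control for Plaur. On the slide with 5 restraint and 2 control arrays of experiment 2, it was 0.29 above. On the only slide with both restraint plus propranolol (1 array) and control (2 arrays) of 1 experiment, the difference was 0.36. With slide as a fixed term the change with restraint plus propranolol was 0.62 and no longer called (adjusted p = 0.231), and without restraint plus propranolol replicate 2 or 3 of experiment 1 the adjusted p was 0.0539 or 0.0544. Erythroid markers were lower in the same comparison: 10 of 10 were below control, with a median of -2.07 and 0 called. All 10 had an unadjusted p under 0.05 in limma, beside 18.4% of all probes. Mature neutrophil markers, which belong to cells known to carry uPAR, had 0 of 8 called, and monocyte markers had 1 of 9 called, beside 3.49% of all probes. The neutrophil list averaged 10.70 on control and 10.81 on restraint plus propranolol arrays, and the monocyte list 7.92 and 8.10. By gene, 3 of 8 neutrophil markers (median -0.03) and 6 of 9 monocyte markers (median 0.13) were above control. The part of any of these cell types in the Plaur values was not tested.

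**Figure D1:**
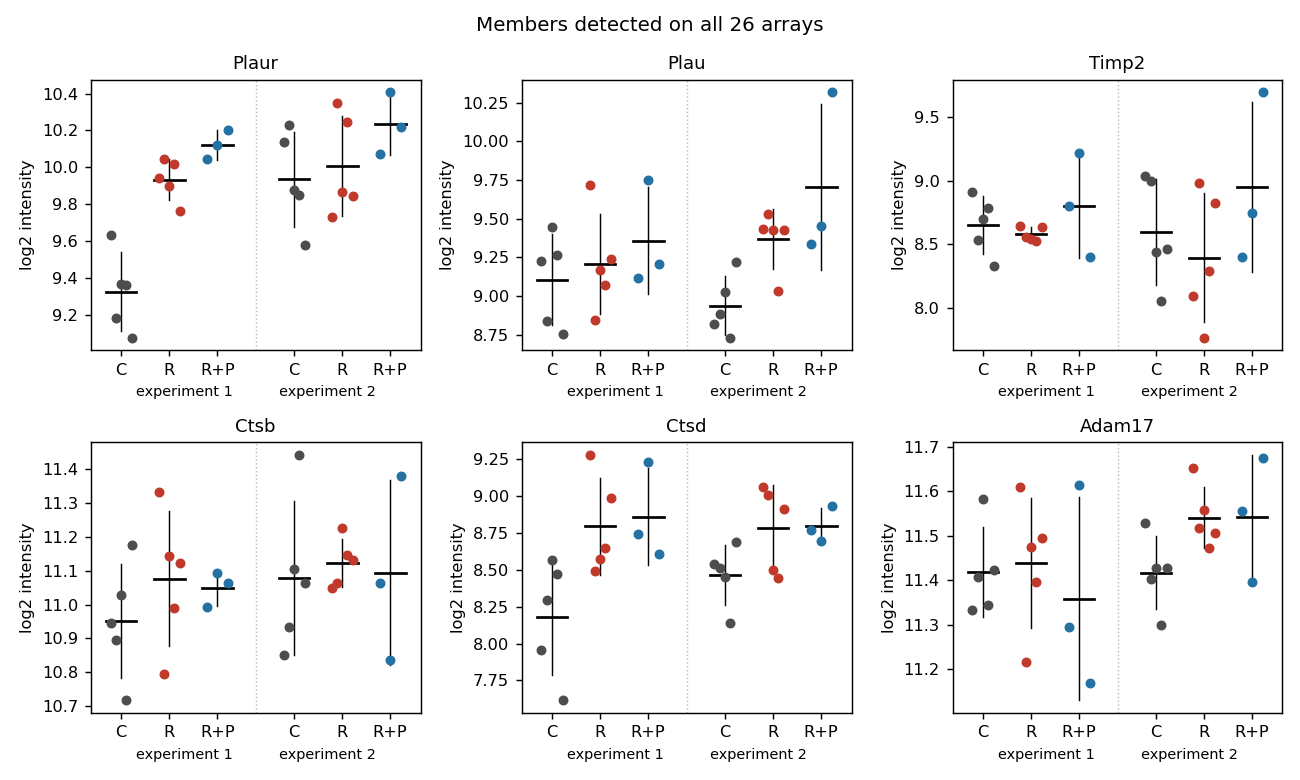
Normalized log2 intensity of the 6 genes detected on all 26 arrays, by condition (C home cage control, R restraint, R+P restraint plus propranolol) and experiment. Points are arrays, horizontal lines are group means and vertical lines are ± 1 SD; each panel has its own scale. The experiment 1 control arrays of Plaur, 9.07 to 9.63, lie below all other Plaur values of that experiment, and the Ctsd control arrays lie below all restraint plus propranolol arrays of their experiment. Such gaps were not counted over all probes.

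The ligand gene Plau (probe ILMN_2629582, chr14:20836662-20843388) was higher in the same direction but was not called. Its log2 intensity was 9.02 ± 0.25 on control arrays, 9.29 ± 0.27 on restraint arrays and 9.53 ± 0.45 on restraint plus propranolol arrays (SD, n = 10, 10 and 6). Restraint plus propranolol was 0.51 above control (SE 0.163, interval 0.17 to 0.85), with adjusted p = 0.0820 and 6 of 6 arrays above the control mean. Restraint was 0.27 above control (SE 0.141, adjusted p = 0.415, 8 of 10 arrays), and restraint plus propranolol was 0.24 above restraint (SE 0.163, adjusted p = 0.847). Without restraint plus propranolol replicate 3 of experiment 2, the brightest Plau array, restraint plus propranolol was 0.09 above restraint and 0.35 above control.

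Unlike Plaur, Plau separated its groups more in experiment 2. The control arrays there read 8.82, 8.89, 9.03, 8.73 and 9.22, the restraint arrays 9.44, 9.53, 9.42, 9.03 and 9.43, and the restraint plus propranolol arrays 9.34, 9.45 and 10.32. The restraint plus propranolol arrays did not overlap the controls, while 1 restraint array, at 9.03, lay within the control range. Gaps of this kind were not counted over all probes. In experiment 1 the control arrays read 9.22, 8.84, 9.44, 9.27 and 8.75, the restraint arrays 9.72, 8.84, 9.17, 9.07 and 9.24, and the restraint plus propranolol arrays 9.12, 9.75 and 9.21. All 3 groups overlapped in experiment 1. The change with restraint plus propranolol was 0.25 in experiment 1 (adjusted p = 0.834) and 0.77 in experiment 2 (SE 0.227, adjusted p = 0.105), and the latter was 0.41 without the 3 arrays of lowest array weight. The difference between the experiments, 0.51, had an unadjusted p of 0.124 and adjusted p = 0.888 in limma. Of the restraint plus propranolol arrays of experiment 2, 2 sat on a slide with no other group. With slide as a fixed term the changes were 0.34 in experiment 1 and 0.36 in experiment 2, so they no longer differed in this way. The experiment 2 value then rests on 1 restraint plus propranolol array, which was 0.36 above control and -0.03 from restraint on its slide.

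The inhibitor gene Serpinb2 (probe ILMN_1253874, chr1:107500892-107525600) was near background, detected on 9 of 26 arrays. In experiment 2, the restraint plus propranolol arrays read 5.55, 4.87 and 7.10, of which the second was not detected, and the 5 restraint arrays read 4.65, 4.75, 4.60, 4.40 and 5.06, of which only the last was detected. The control arrays of experiment 2 read 4.60, 4.61, 5.00, 6.31 and 4.64, with the values 5.00 and 6.31 detected. The groups overlapped through a few bright arrays. In experiment 1 the detected values were 5.58 on a control array, 4.98 on a restraint array, and 5.11 and 5.37 on restraint plus propranolol arrays.

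Over both experiments Serpinb2 was 0.67 higher with restraint plus propranolol than with restraint alone (SE 0.276, interval 0.11 to 1.24), with an unadjusted p of 0.0218 and adjusted p = 0.745, and 5 of 6 arrays lay above the restraint mean. This value is set against a group near background, where 2 of 10 restraint arrays were detected, and it was 0.35 without restraint plus propranolol replicate 3 of experiment 2. Against control the differences were -0.19 for restraint (SE 0.239, adjusted p = 0.787) and 0.49 for restraint plus propranolol (SE 0.276, adjusted p = 0.354). Means were 4.95 ± 0.58 on control, 4.76 ± 0.19 on restraint and 5.43 ± 0.88 on restraint plus propranolol arrays, and values of undetected arrays have no order. The offset of 16 added to every intensity before the log understates differences of such dim probes.

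The lysosomal aspartic protease gene Ctsd (probe ILMN_2987685, chr7:142375910-142387827) had the largest difference between restraint and control among the 9 genes, although it missed the threshold. Its log2 intensity was 8.32 ± 0.33 on control, 8.79 ± 0.29 on restraint and 8.83 ± 0.22 on restraint plus propranolol arrays (SD, n = 10, 10 and 6). Restraint was 0.46 above control (SE 0.136, interval 0.19 to 0.74), a 1.38-fold difference with adjusted p = 0.0759, and 9 of 10 arrays were above the control mean. Restraint plus propranolol was 0.51 above control (SE 0.157, interval 0.18 to 0.83), with adjusted p = 0.0729 and 6 of 6 arrays above. Restraint plus propranolol and restraint lay 0.04 apart (SE 0.157, interval -0.28 to 0.36), with adjusted p = 0.981.

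The Ctsd control arrays read 7.96, 8.30, 8.56, 8.47 and 7.61 in experiment 1 and 8.54, 8.51, 8.45, 8.14 and 8.69 in experiment 2. The restraint plus propranolol arrays read 8.74, 9.23 and 8.61, then 8.77, 8.69 and 8.93, above every control array of the same experiment, although the closest pair in experiment 2 both round to 8.69. What share of all probes lay apart in this way was not counted. The restraint arrays read 9.28, 8.49, 8.57, 8.65 and 8.99, then 9.06, 9.01, 8.50, 8.44 and 8.91. They overlapped the controls in both experiments. Restraint was above control by 0.61 in experiment 1 and by 0.32 in experiment 2, and the difference between these, -0.30, had an unadjusted p of 0.289. On the slides that held both conditions, restraint was 0.60 and 0.37 above control. Macrophages are rich in cathepsins, and their 9 tested markers averaged 6.71 on control arrays (5.99 to 7.19), 6.94 on restraint arrays (6.64 to 7.27) and 6.72 on restraint plus propranolol arrays (6.46 to 7.07). Limma called 0 of these 9 in each comparison, with 2, 0 and 0 at an unadjusted p under 0.05, beside 14.0%, 6.24% and 18.4% of all probes. For restraint against control 8 of 9 were positive (median 0.23). For restraint plus propranolol 1 was positive against restraint (median -0.25) and 5 against control (median 0.02). The part of macrophages in the Ctsd values was not tested.

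Ctsd was called for restraint against control in 2 of 13 alternatives, with adjusted p from 0.0135 to 0.218, and in 1 of 26 fits without 1 array. With array weights the restraint change was 0.45 (adjusted p = 0.0135), and with the authors' normalized matrix it was 0.35 (adjusted p = 0.0473). Without restraint replicate 4 of experiment 2, its lowest restraint array, the change was 0.51 (adjusted p = 0.0454).

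The cysteine protease gene Ctsb (probe ILMN_2683316, chr14:63122462-63145923) varied little. Its group means ran from 10.95 ± 0.17 on the experiment 1 controls to 11.12 ± 0.07 on the experiment 2 restraint arrays. Restraint was 0.08 above control (SE 0.0922, interval -0.10 to 0.27, adjusted p = 0.745), and restraint plus propranolol was -0.03 from restraint (interval -0.25 to 0.19). The order control, restraint plus propranolol, restraint had no neighbours that differed past the test.

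The sheddase gene Adam17 (probe ILMN_2594718, chr12:21323509-21373632) had the narrowest intervals. Its means were 11.42 ± 0.09 on control, 11.45 ± 0.20 on restraint plus propranolol and 11.49 ± 0.12 on restraint arrays. Restraint was 0.07 above control (SE 0.0777, interval -0.09 to 0.23, adjusted p = 0.743) with 8 of 10 arrays above the control mean. Restraint plus propranolol was 0.03 above control (interval -0.15 to 0.22, adjusted p = 0.888).

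**Figure D2:**
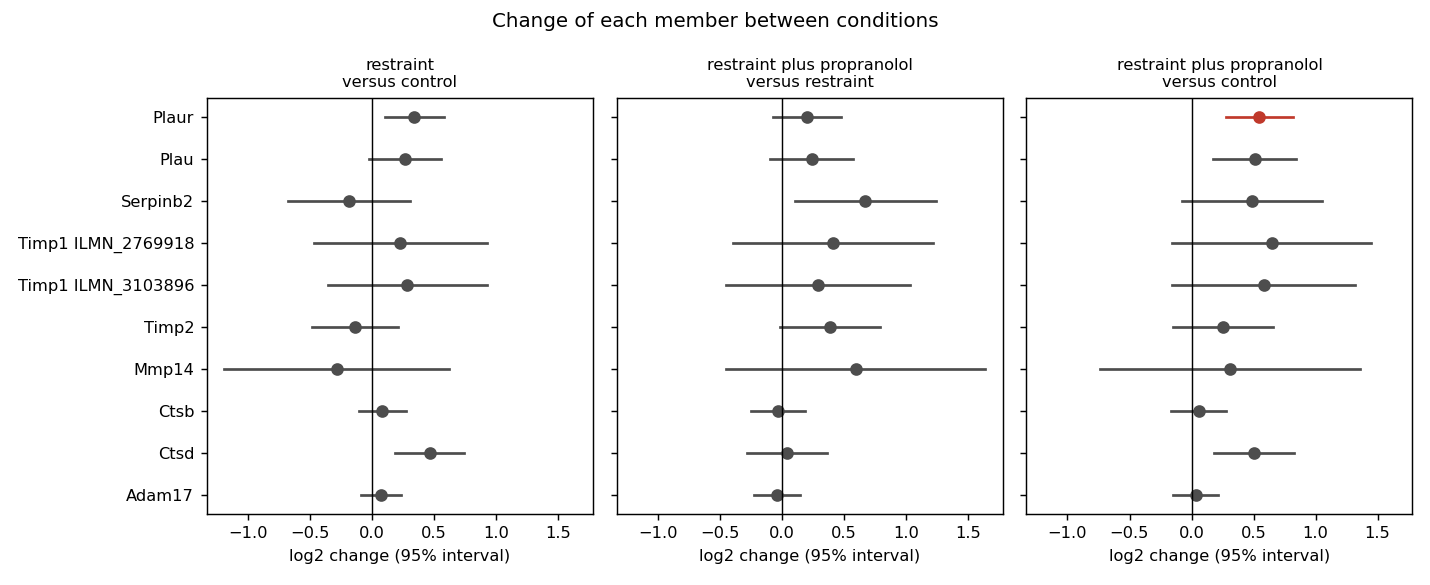
Change in log2 intensity of each probe between conditions over both experiments, with 95% intervals from limma, for restraint against control, restraint plus propranolol against restraint, and restraint plus propranolol against control. Red marks the single call, Plaur at 0.55 in the third panel; Ctsd and Plau lie at 0.51 there without passing the test, and the intervals of Mmp14 and both Timp1 probes include 0 in every panel.

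The metalloproteinase inhibitor gene Timp2 (probe ILMN_2712867, chr11:118301061-118355411) was detected on all arrays. Its means were 8.49 ± 0.36 on restraint, 8.62 ± 0.32 on control and 8.88 ± 0.50 on restraint plus propranolol arrays. Restraint plus propranolol was 0.39 above restraint (SE 0.196, interval -0.01 to 0.79, adjusted p = 0.800), with 5 of 6 arrays above the restraint mean. Without restraint plus propranolol replicate 3 of experiment 2 this difference was 0.21. Restraint was -0.14 from control (SE 0.170, adjusted p = 0.777). The highest Timp2 array of all, at 9.70, was that same array, which had the lowest share of detected probes, 39.5%.

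Timp1 (chrX:20870166-20874737), the other inhibitor, was detected almost only in experiment 2. All its detected values there came from slides without experiment 1 arrays. The 3 experiment 2 control arrays on a slide shared with experiment 1 were undetected, so the counts by group are confounded with slide. Slide's part in them was not tested. In experiment 1 probe ILMN_2769918 was detected on no array and probe ILMN_3103896 on 1, a restraint array at 5.11. In experiment 2, probe ILMN_3103896 was detected on 1 of 5 control arrays (7.28), on 3 of 5 restraint arrays (5.36, 6.13 and 6.99) and on 3 of 3 restraint plus propranolol arrays (6.68, 5.46 and 6.60). Its undetected values in experiment 2 lay between 4.44 and 4.76. Probe ILMN_2769918 gave 7.12 on the same control array, 6.47 and 7.04 on 2 restraint arrays, and 6.61, 5.31 and 7.13 on the restraint plus propranolol arrays. The probes moved together over the arrays (Pearson r = 0.97 over 26).

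Neither Timp1 probe was called. Restraint plus propranolol against control gave 0.58 (SE 0.360, adjusted p = 0.405) and 0.64 (SE 0.392, adjusted p = 0.393) for ILMN_3103896 and ILMN_2769918 over both experiments. In experiment 2 these were 1.09 (adjusted p = 0.287) and 1.31 (adjusted p = 0.237). Restraint was 0.39 and 0.47 above control in experiment 2. On the slide with 5 restraint and 2 control arrays of that experiment, it was instead -0.40 and -0.35 from control. The 1 restraint plus propranolol array on that slide was 0.74 and 0.75 above control. No fold is given for experiment 1, where ILMN_2769918 was not above background in any group.

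Mmp14 (probe ILMN_1240726, chr14:54431598-54442456) was detected on 17 of 26 arrays and had the widest intervals of the 9 genes. In experiment 2, the 3 restraint plus propranolol arrays read 5.57, 4.69 and 8.91, with the second not detected. The control arrays of experiment 2 read 4.94, 4.88, 4.90, 7.47 and 5.47, of which the last pair was detected. In experiment 1 the control arrays lay between 4.75 and 7.14 and the restraint arrays between 4.79 and 6.70. All groups overlapped.

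Mmp14 differed by -0.28 between restraint and control (SE 0.440, adjusted p = 0.831), by 0.59 between restraint plus propranolol and restraint (SE 0.508, adjusted p = 0.890) and by 0.31 between restraint plus propranolol and control (SE 0.508, adjusted p = 0.798). Without restraint plus propranolol replicate 3 of experiment 2 the last 2 of these values turned to -0.04 and -0.32. Its brightest arrays, restraint plus propranolol replicate 3 and control replicate 4 of experiment 2, were those with the lowest array weights, 0.155 and 0.199. The same arrays were the brightest for Serpinb2, at 7.10 and 6.31. Without the 3 arrays of lowest weight, Mmp14 differed by -0.05 between restraint plus propranolol and restraint and by 0.11 between restraint plus propranolol and control. Stromal, bone and endothelial cells are known sources of Mmp14 and Timp1, and 8 of their markers were tested, of which 1 was detected on every array. Their mean log2 intensity was 5.52 on control arrays (4.95 to 6.25), 5.49 on restraint arrays (5.09 to 6.50) and 5.50 on restraint plus propranolol arrays (5.19 to 5.96). Limma called 0 of the 8 in each comparison, beside 2.06%, 0% and 3.49% of all probes. At an unadjusted p under 0.05 there were 0, 0 and 1 of the 8, beside 14.0%, 6.24% and 18.4% of all probes. The part of these cells in the Mmp14 and Timp1 values was not tested.

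**Figure D3:**
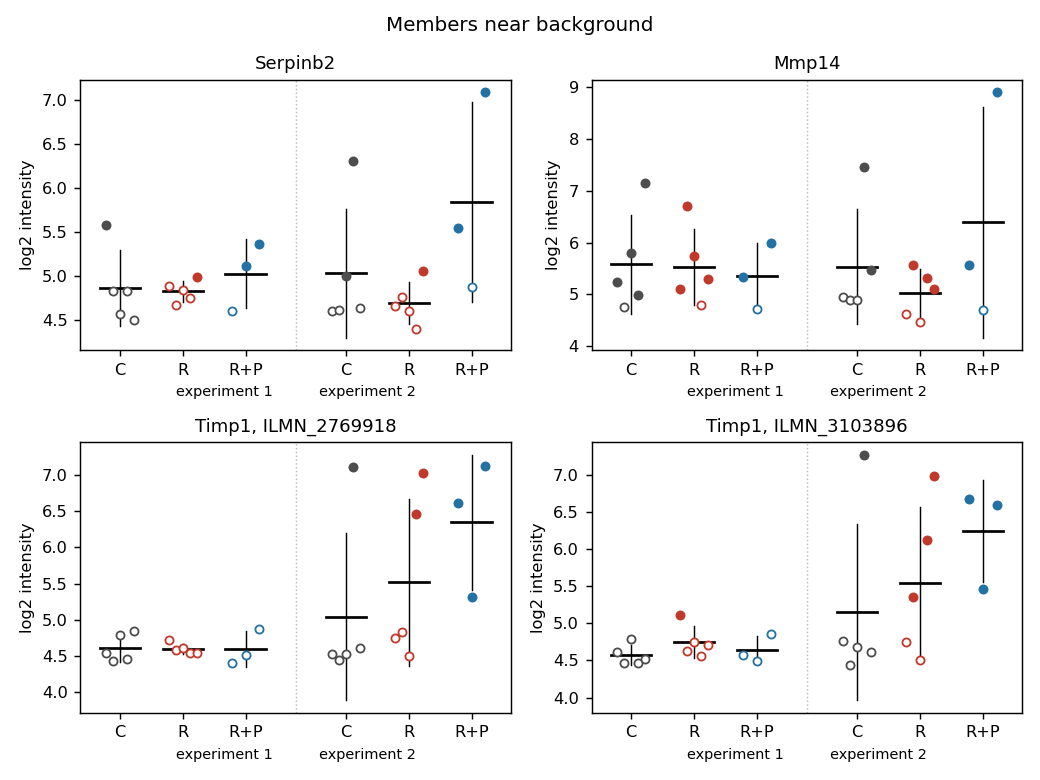
Normalized log2 intensity of Serpinb2, Mmp14 and the 2 Timp1 probes by condition and experiment. Filled points are arrays on which the probe was detected (p under 0.05) and open points are not; lines are group means with ± 1 SD, and each panel has its own scale. The open points lie between 4.39 and 4.94, and 1 control array of experiment 2 reaches 6.31 to 7.47 in all 4 panels.

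Across the 9 genes, counted with the brighter Timp1 probe, limma called 0 for restraint against control, where 2.06% of all probes were called. In that comparison 2 of the 9 had an unadjusted p under 0.05, beside 14.0% of all probes. Of the 9 differences, 6 were positive, with a median of 0.08 beside -0.00 over all genes. For restraint plus propranolol against restraint 0 of 9 were called and 1 had an unadjusted p under 0.05, where 0% of all 15061 probes were called and 940 had such a p. Of the 9, 7 were positive, with a median of 0.24 beside -0.01. For restraint plus propranolol against control 1 of 9 was called, beside 3.49% of all probes, and 3 of 9 had an unadjusted p under 0.05, beside 18.4%. All 9 differences were positive there, beside 47.5% of all genes, with a median of 0.49 beside -0.02. Not all of these signs held: Mmp14 was at -0.32 without restraint plus propranolol replicate 3 of experiment 2. Timp2, Ctsb and Adam17 also turned negative under some alternatives, down to -0.03, -0.03 and -0.05. The comparisons share the control and restraint arrays, so these counts are not independent of one another.

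Apart from Plaur, members of the urokinase and plasmin system were not called by limma in any of the 3 comparisons. Of 27 genes listed, 20 were tested, with median differences of 0.09, 0.04 and 0.18. The order is restraint against control, restraint plus propranolol against restraint, and restraint plus propranolol against control. In that order 2, 2 and 5 of the 20 had an unadjusted p under 0.05, with Plaur among them in the first and last. Over all probes, 14.0%, 6.24% and 18.4% had such a p in these comparisons, and 3.49% were called in the last, the one in which Plaur was called. Plg, the gene of plasminogen, did not pass the detection filter, which was looked up after the values were seen.

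Among matrix metalloproteinases and their inhibitors, limma called 0 of 13 tested genes in each comparison, with medians of -0.05, -0.01 and 0.11. At an unadjusted p under 0.05 there were 1, 0 and 0 of them, beside 14.0%, 6.24% and 18.4% of all probes. Mmp2, the substrate of Mmp14 and Timp2 acting together, did not pass the filter either, and was likewise looked up afterwards.

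Among 26 cathepsins, cystatins and lysosomal partners, 2 rose with restraint plus propranolol against control, where 3.49% of all probes were called. In restraint against control and restraint plus propranolol against restraint limma called 0, with 7 and 3 of 26 at an unadjusted p under 0.05, beside 14.0% and 6.24% of all probes. They were the stefin A genes Stfa1 (0.86, adjusted p = 0.00325) and Stfa3 (0.68, adjusted p = 0.0300), which encode inhibitors of cysteine cathepsins. The stefin A genes are near-identical copies, so the assignment of signal to either is uncertain. The list's medians were 0.15, 0.00 and 0.14, with 20, 14 and 17 of 26 genes positive.

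Of 11 tested ADAM sheddases and partners, limma called 1 for restraint plus propranolol against control, beside 3.49% of all probes. It was Furin, the convertase that removes the prodomain of Adam17, which rose by 0.52 (SE 0.145, adjusted p = 0.0440). No gene of that list was called by limma in the other comparisons, where 1 and 0 had an unadjusted p under 0.05, beside 14.0% and 6.24% of all probes. The list's medians were 0.10, 0.08 and 0.07.

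The largest called changes among these lists were in genes of surface proteins that ADAM17 sheds. Of 17 tested, Tnf, the inflammatory cytokine, and Icam1, an adhesion molecule, rose with restraint against control, by 1.08 (adjusted p = 0.00317) and 0.89 (adjusted p = 0.00112), beside 2.06% of all probes called. With restraint plus propranolol against control, Tnf rose by 1.54 (adjusted p = 0.000108), Icam1 by 1.45 (adjusted p = 1.2e-05) and Il1r2, the decoy receptor of interleukin 1, by 0.64 (adjusted p = 0.0419), beside 3.49% of all probes called. For restraint plus propranolol against restraint limma called 0 of 17, with 2 at an unadjusted p under 0.05, beside 6.24% of all probes. The list's medians in the 3 comparisons were 0.15, 0.13 and 0.35. Cd14, a monocyte surface protein, rose in the same comparisons with control (0.81, adjusted p = 0.0229, and 1.40, adjusted p = 0.000314). It was the single one of 9 monocyte markers called and is named after its values were seen, and the monocyte list had medians of 0.11 and 0.13 there.

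The genes most like each member over the 26 arrays were found by Pearson correlation after removing each experiment's mean, with the correlation after removing the 6 group means given second. These values are descriptions, since the arrays share slides and conditions. For Plaur they were Ets2 (0.85 and 0.60), Zrsr2 (0.84 and 0.60) and Trem1 (0.84 and 0.56). For Plau they were LOC100045940 (0.85 and 0.75), Nsfl1c (0.84 and 0.78) and Ppt1 (0.84 and 0.83), and for Ctsd they were Fxyd5 (0.91 and 0.88), Pim1 (0.90 and 0.82) and Fmnl1 (0.88 and 0.82). The 3 correlations with Plaur were lower once the group means were removed, while those with Plau and Ctsd changed less.

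For Ctsb the genes reported are Atox1 (0.84 and 0.84) and Havcr2 (0.83 and 0.86). For Adam17 they were Marcks (0.76 and 0.79), Tnfsf14 (0.74 and 0.78) and Mief2 (0.70 and 0.72), and for Timp2 they were Fam217b (0.80 and 0.83), Dab2ip (0.78 and 0.76) and Klhl12 (0.77 and 0.75). The dim genes Mmp14, Serpinb2 and Timp1 had values near background on many arrays and a few bright ones. For Mmp14 these were Col4a1 (0.90 and 0.90), Tti1 (0.85 and 0.86) and Abca12 (0.84 and 0.89), for Serpinb2 Cysltr1 (0.86 and 0.80), Raet1b (0.84 and 0.81) and Cmklr1 (0.82 and 0.83), and for Timp1 Akr1c18 (0.85 and 0.82), Lrp12 (0.83 and 0.80) and Ednrb (0.81 and 0.79).

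Among the members themselves, Plau and Ctsd were the most alike (0.68, and 0.72 after removing group means), followed by Serpinb2 and Mmp14 (0.68 and 0.62). Plau and Adam17 gave 0.64 and 0.66. Plaur and its ligand gene Plau gave 0.27, and -0.03 once group means were removed. Plaur and Ctsd gave 0.49 and -0.08.

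**Figure D4:**
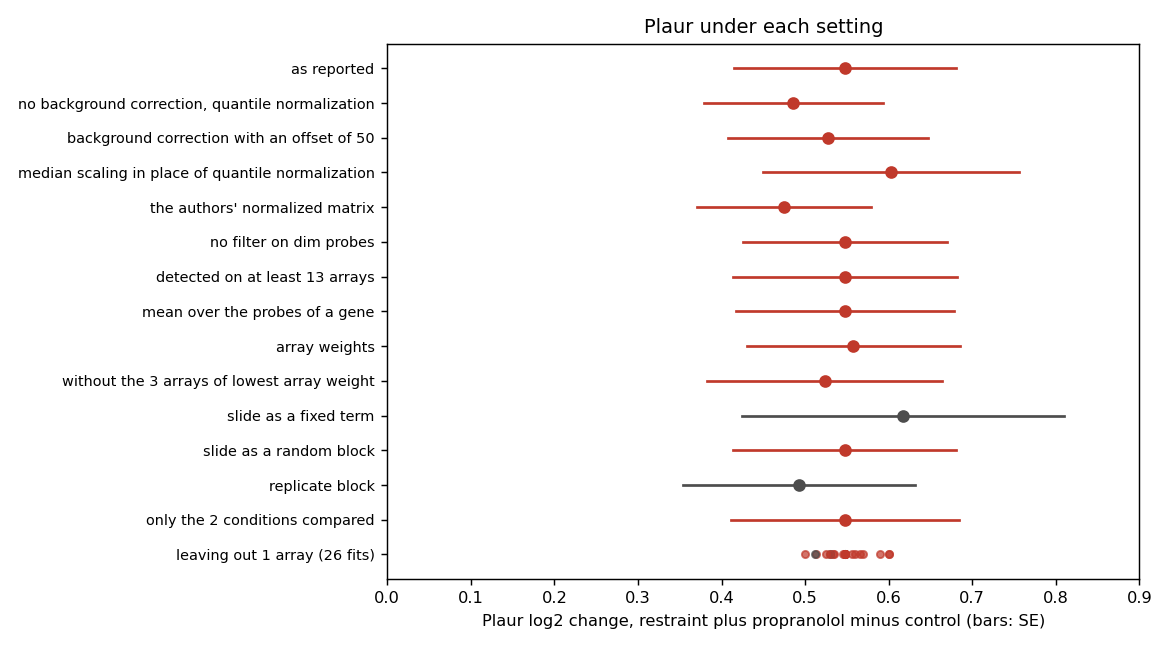
Plaur change in log2 intensity for restraint plus propranolol against control under each way of processing, with bars of ± 1 SE, and in the lowest row the 26 fits that each leave out 1 array. Red marks adjusted p under 0.05. The change stays between 0.47 and 0.62, and it is not called with slide as a fixed term, with the replicate block, or in 2 of the 26 fits.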

How the data were processed

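Biotin-labelled cDNA, amplified from total RNA with NuGEN kits, was hybridised to Illumina MouseRef-8 v2.0 beadchips, and GenomeStudio is the only tool named in the submitters' processing notes, with no version. The deposited raw data hold mean bead intensity per probe and array, not scaled between arrays (lowest value 96.0), and, per the file headers, a detection p-value, a bead count and a bead standard error. The authors also deposited a normalized intensity matrix of 18138 symbols on a linear scale, whose method is not given in the sources used here; it served as an alternative. A further 6 arrays in the raw matrix, which the labels put in no group, were not used. The genome build of the array's annotation is not given in the sources used here, so gene positions and promoters come from RefSeq tables of GRCm38.p6.

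Raw intensities were background-corrected, quantile normalized and put on the log2 scale with limma's neqc (offset 16, negative controls inferred from the detection p-values). Probes detected on at least 3 arrays were kept, 15061 of 25697, and named by Entrez identifier (23788), accession (1148), symbol (99), synonym (98) or the file's own name (564). Where a gene had several probes, that with the highest mean was used. Models of condition and experiment, and of the 6 groups, were fitted to all 26 arrays with limma, and p-values were adjusted by Benjamini-Hochberg over all 15061 probes. The fit was tested on simulated data. Fits ran in R 4.3.3 with limma 3.58.1, and figures were drawn with matplotlib 3.10.9. All 9 members are named, then genes of the pathway lists that were called (at most 5 per list and direction) and the 3 genes most like each member, of which 1 is not reported here. The members and lists were chosen with earlier results of these data known.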

Additional observations from a re-analysis of the deposited data

Results flagged for a closer look

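Each member probe was examined in each group of 5 arrays, which gave 40 sets of values. In 5 of them, 1 array stood apart from the other 4 by Dixon's test at the 95% level, where chance gives about 1 in 20. The sets share arrays, and the 2 Timp1 probes moved together, so the flags are not independent and cannot be weighed against that share. For Plau, restraint replicate 4 of experiment 2 was the lowest of its group, at 9.03. Control replicate 4 of experiment 2 was the highest of its group for Serpinb2 (6.31), for both Timp1 probes (7.12 for ILMN_2769918 and 7.28 for ILMN_3103896) and for Mmp14 (7.47). On that array 42.5% of probes were detected, against 39.5% to 51.2% over all arrays, and its array weight, 0.199, was the second lowest.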

How the results depend on the processing

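Over 13 alternatives and 26 fits that each left out 1 array, 0 called member values changed sign, and 23 of 1047 member values compared, none of them called, did. The Plaur change with restraint plus propranolol against control was called in 11 of 13 alternatives (0.47 to 0.62, adjusted p 0.00557 to 0.231) and in 24 of 26 fits without 1 array. Of the 9 members, the number called in that comparison was 2 with median scaling, the authors' normalized matrix or array weights (Ctsd joining at adjusted p = 0.04995, 0.0489 and 0.0249) and 0 with slide as a fixed term or with the replicate block (Plaur 0.49, adjusted p = 0.0761). It ranged from 0 to 2 when leaving out 1 array: Plaur was lost without restraint plus propranolol replicate 2 or 3 of experiment 1, and Plau joined at 0.56 (adjusted p = 0.0484) without control replicate 3 of experiment 1. Restraint against control had 1 call, Ctsd, with the authors' matrix or array weights, and 0 to 1 when leaving out 1 array. Within experiment 1, restraint against control had 1 call, Plaur, without background correction (adjusted p = 0.0346), with an offset of 50 (0.0457), with the authors' matrix (0.0281) or with array weights (0.0237). Restraint plus propranolol against control within experiment 1 had 0 calls with median scaling, slide as a fixed term, the replicate block or only the 2 conditions fitted, 2 with array weights, and 0 to 1 when leaving out 1 array (0 without control replicate 2, 4 or 5 or any restraint plus propranolol array). Within experiment 2, leaving out restraint plus propranolol replicate 2 gave a range of 0 to 1 in both comparisons with that group: Serpinb2 against restraint (1.63, adjusted p = 0.0274) and Plau against control (0.89, adjusted p = 0.0401). The cause was not tested.

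Over all probes, 310 calls for restraint against control became 195 with median scaling, 184 with no filter, 1150 with array weights, 507 without the 3 arrays of lowest weight, 103 with slide as a fixed term, and 147 to 436 when leaving out 1 array. For restraint plus propranolol against control, 526 became 1371 with array weights, 32 with slide as a fixed term, 307 with the replicate block, and 299 to 654 when leaving out 1 array. For restraint plus propranolol against restraint, 0 became 10 with array weights, 1 with only the 2 conditions fitted, and 0 to 4 when leaving out 1 array. Correlations of same-numbered arrays' deviations ran from -0.26 to 0.33, and those of different-numbered arrays from -0.35 to 0.29. With only 3 to 5 same-numbered pairs per comparison, these values cannot decide whether the replicate numbers pair the arrays. Serpinb2 and Timp1 gave no value when detection on 13 arrays was required. Signal near background limits what can be said of Serpinb2, Timp1 and Mmp14.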
